A study of Mus musculus with 20 samples.

Results

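RNA-seq counts of 7 genes for fatty acid desaturases and elongases (*Fads1*, *Fads2*, *Fads6*, *Elovl2*, *Elovl3*, *Elovl5* and *Scd2*) were examined in 20 mouse livers. They were taken by gene symbol from a table of 50559 genes, and all 7 passed the filter on low counts in every comparison. All mice were homozygous for a floxed *Cideb* allele (labelled cidebfl/fl) on the C57BL/6 background. WT livers had received AAV-TBG-GFP and KO livers AAV-TBG-Cre, in which the TBG promoter restricts Cre to hepatocytes, so that every other cell type of a KO liver keeps *Cideb*. Each vector was combined with Western diet (WD) or with CDA-HFD, giving 4 groups of 5 livers. WD was a high-fat, high-sugar and high-cholesterol food given with sugar water. CDA-HFD was a high-fat diet that the study describes as deficient in methionine and choline. The labels give 3 months for either diet, whereas the study's text gives a longer time for WD than for CDA-HFD in such mice, and no label states the age or sex of the animals or the day on which a liver was taken. Diet can therefore not be told apart from duration or from a separate experiment. The labels do not say that each library is a separate mouse, so p-values measure the spread between these libraries.

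Mammals cannot make linoleic and alpha-linolenic acid and take them from food. From these precursors the liver builds arachidonic acid and docosahexaenoic acid (DHA) by alternating desaturation and elongation in the endoplasmic reticulum. FADS2, the delta-6 desaturase, takes the entry step, ELOVL5 adds carbons to the products, FADS1, the delta-5 desaturase, makes arachidonic and eicosapentaenoic acid, and ELOVL2 carries the chain on towards DHA, which is finished by peroxisomal shortening. Not every gene of the group works on polyunsaturated chains: ELOVL3 elongates mainly saturated and monounsaturated chains, SCD2 is a delta-9 desaturase that makes monounsaturated fatty acids, and *Fads6* is named for its similarity to the other desaturases.

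Levels are given as CPM, read counts scaled to a common library size with TMM factors of all 20 libraries, which held between 11697049 and 16827147 reads on genes. Differences are log2 fold changes with their standard error (SE) and p-values of edgeR's quasi-likelihood F test, adjusted by the Benjamini-Hochberg method over all genes tested, and a gene was called at an adjusted p under 0.05. *Cideb* itself was counted 52 to 100 times per WT liver on WD and 35 to 60 times per WT liver on CDA-HFD, against 0 to 5 and 0 to 6 times in KO livers. The KO label was thus borne out in each library, although the gene shares 1136 of its 1488 exon bases with *Nop9* on the other strand. On CDA-HFD, KO liver 5 stood apart from the other KO livers. On the first principal component of the 10 livers of that diet, which held 61.3% of the variance, it lay at -41.4, within the WT range of -63.3 to -7.53, whereas the other 4 KO livers lay between 42.9 and 66.1. Calls that rest on it are given with and without it. Because this liver was singled out by its WT-like expression, leaving it out favours larger KO differences by construction. Fits without it are therefore descriptions and add no support to a call.

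On WD, *Fads2* was the most abundant of the 7 genes per length, at a median of 610 RPKM (reads scaled by exon length and by the depth of the library) in WT livers. *Elovl5* followed at 506 RPKM, with a range that overlapped that of *Fads2*. *Fads1* at 205 RPKM and *Elovl2* at 156 RPKM formed a lower pair whose ranges overlapped each other but not that of *Elovl5*. *Fads6* at 31.3 RPKM and *Elovl3* at 23.6 RPKM also overlapped, and *Scd2* was lowest at 5.64 RPKM. KO livers on WD had the same order. In WT livers on CDA-HFD, *Fads1* at 111 RPKM stood above *Elovl5* at 74.0 RPKM and *Elovl2* at 67.9 RPKM, and *Elovl3* at 1.82 RPKM was below *Scd2* at 9.49 RPKM. In KO livers on CDA-HFD, *Elovl3* at 7.03 RPKM was again above *Scd2* at 4.71 RPKM, with overlapping ranges. The order of neighbours depended on the length used: divided by coding length, *Elovl5* came before *Fads2* on WD.

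**Figure D1:**
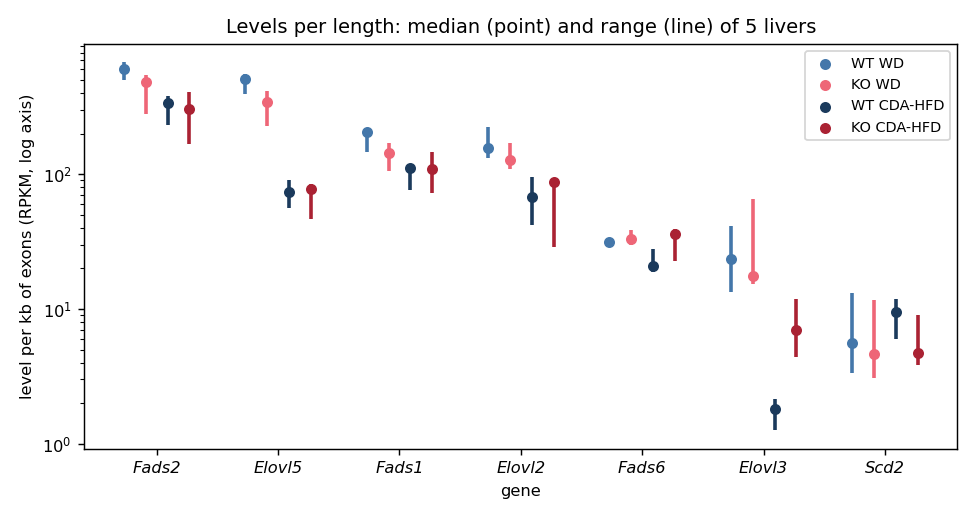
Level of each gene per kilobase of exons (RPKM, log axis) in the 4 groups, as the median (point) and range (line) of 5 livers. *Elovl5* dropped from the level of *Fads2* on WD to that of *Elovl2* on CDA-HFD, and *Elovl3* went from a median of 23.6 to 1.82 RPKM in WT livers.

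The 7 genes lie on 4 chromosomes (GRCm38). *Fads2* (ENSMUSG00000024665, chr19:10062765-10101746, minus strand) and *Fads1* (ENSMUSG00000010663, chr19:10182888-10196877, plus strand) lie head to head, transcribed away from each other. *Scd2* (ENSMUSG00000025203, chr19:44293674-44306864) and *Elovl3* (ENSMUSG00000038754, chr19:46131897-46135694), both on the plus strand, are on the same chromosome. *Elovl5* (ENSMUSG00000032349, chr9:77917364-77984519) is on the plus strand, and *Fads6* (ENSMUSG00000044788, chr11:115279622-115297663) and *Elovl2* (ENSMUSG00000021364, chr13:41182381-41220405) are on the minus strand. Of all 75-base windows of their annotated transcripts, 1.78% of *Scd2* also occurred in *Scd1*, *Scd3* or *Scd4* and 0.788% of *Fads6* in other genes, whereas the other 5 genes shared none. *Elovl3* shares 10 exon bases with *Pitx3* on the opposite strand and *Scd2* shares 61 with *Mir5114* on its own strand, and whether the counting used strand is not known.

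In WT livers, 6 of the 7 genes were lower on CDA-HFD than on WD, and in all 6 each CDA-HFD liver lay below each WD liver. Of all 16726 genes tested, 25.2% were called lower, 25.9% were called higher, and in 37.1% the groups did not overlap. The median difference of the 7 genes was -0.95 on the log2 scale, against -0.00 for all genes tested. The same comparison in KO livers called 2 of the 7 genes lower, where 7.85% of 16387 genes were called lower, 9.19% higher, and in 15.2% the groups did not overlap. The plot of levels by liver shows these values. With library size as the only scaling, the median of all genes moved by 0.42 in WT livers and by 0.25 in KO livers, and 85.3% of the calls in WT livers were then higher, against 50.7% with TMM, so that all diet differences are relative to the bulk of genes.

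**Figure D2:**
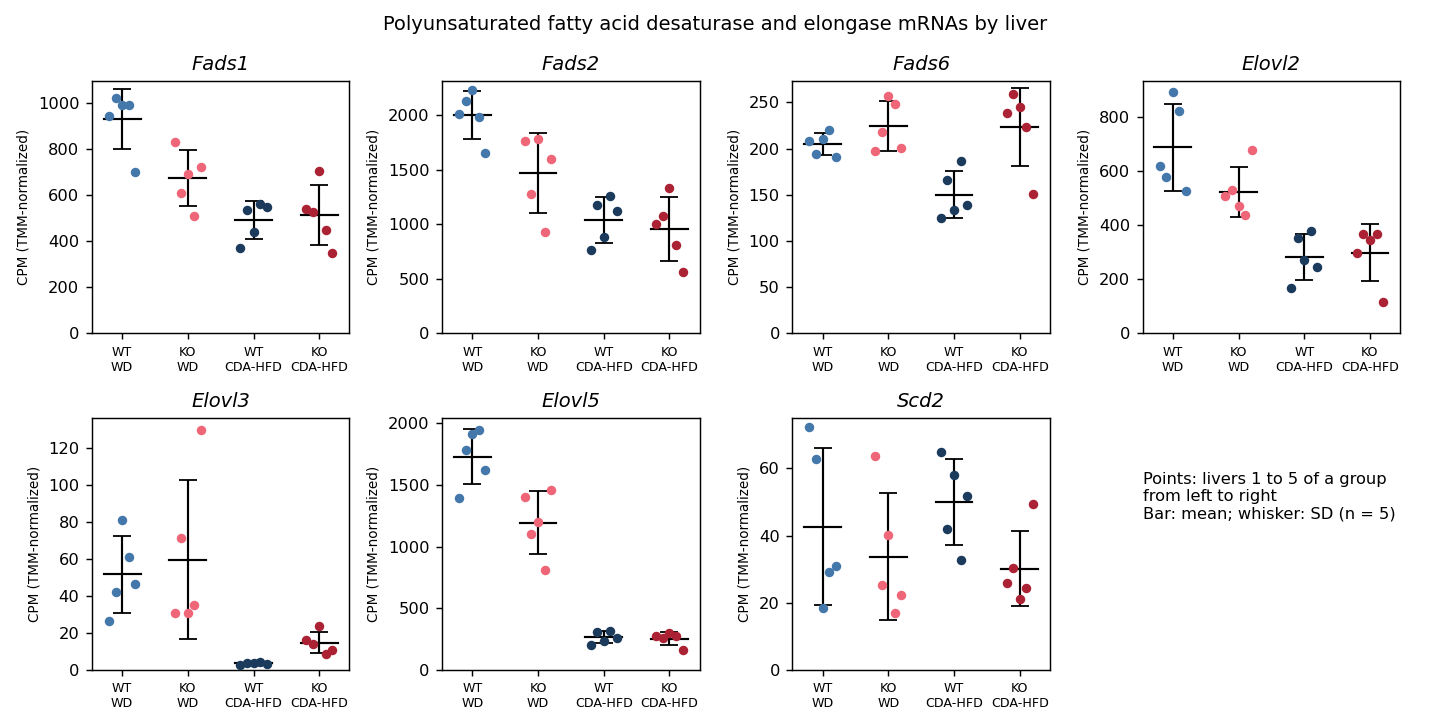
TMM-normalized CPM (linear axis from 0) of the 7 genes in livers 1 to 5 of each group, with the mean (bar) and SD (whisker, n = 5). All WT livers on CDA-HFD lay below all WT livers on WD for every gene but *Scd2*, and all KO livers on CDA-HFD lay above all WT livers on that diet only for *Elovl3*.

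*Elovl5*, the elongase of the middle of the pathway, is expressed in most tissues, and the liver holds a great deal of it. Its promoter is shown here because it fell more than any other gene of the polyunsaturated pathway among the 7, and because the RefSeq window around its start (GRCm38.p6, plus strand) was the only window of the 4 genes matched that held any of the 5 motifs searched on both strands (the E-box CACGTG, the CCAAT box, the sterol element TCACNCCAC, and direct repeats of AGGTCA spaced by 1 or by 4 bases). The 3 stretches below carry an E-box and 2 CCAAT boxes read on the minus strand, in capitals.
chr9:77917192-77917221: actgccccgagaCACGTGaaccacaggaga
chr9:77917282-77917311: tatcgccccaggATTGGttccaaggccgca
chr9:77917336-77917365: ctccgggctcggATTGGctggccgcgccat

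Of 32851 promoter windows of the same length, 7.15% held the E-box and 37.4% a CCAAT box, while 1.24% held the sterol element, 0.0396% the repeat spaced by 1 and 0.0152% that spaced by 4. The matches are descriptions of the letters, and no binding was measured. *Elovl5* stood at 1398, 1781, 1912, 1942 and 1620 CPM in WT livers 1 to 5 on WD, and at 198, 309, 236, 317 and 261 CPM in WT livers on CDA-HFD. The lowest WD liver was thus far above the highest CDA-HFD liver. The log2 difference was -2.72 (SE 0.16, edgeR adjusted p = 1.75e-06), to 0.152 of the WD level. In KO livers *Elovl5* was at 1404, 1101, 1202, 811 and 1455 CPM on WD and at 275, 256, 299, 274 and 164 CPM on CDA-HFD, again without overlap, and the log2 difference was -2.24 (SE 0.20, edgeR adjusted p = 8.36e-05).

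*Elovl2*, which acts on the longer chains that lead to DHA, was lower by a smaller amount. It was at 620, 580, 895, 822 and 527 CPM in WT livers on WD and at 167, 351, 269, 377 and 244 CPM in WT livers on CDA-HFD. The groups were separate, and the log2 difference was -1.29 (SE 0.22, edgeR adjusted p = 5.78e-04). In KO livers it was at 506, 530, 470, 436 and 677 CPM on WD and at 297, 367, 345, 366 and 114 CPM on CDA-HFD. All KO livers on CDA-HFD lay below all KO livers on WD, yet the difference of -0.82 (SE 0.26) missed the threshold (edgeR adjusted p = 0.0525). Without KO liver 5, the lowest of its group, it was -0.62 and passed (edgeR adjusted p = 0.00919).

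The number of *Elovl5* reads per *Elovl2* read in a liver does not depend on scaling. It was between 2.14 and 3.08 in WT livers on WD (mean 2.58 ± 0.46, SD, n = 5) and between 1.86 and 2.77 in KO livers on WD (mean 2.28 ± 0.37). On CDA-HFD it lay between 0.842 and 1.18 in WT livers (mean 0.969 ± 0.148) and between 0.696 and 1.44 in KO livers (mean 0.935 ± 0.295). Every CDA-HFD liver was below every WD liver, and the highest of them was KO liver 5. The reads of the earlier elongase were thus fewer relative to those of the later one on CDA-HFD.

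The desaturases *Fads2* and *Fads1* moved in parallel. *Fads2* stood at 2011, 2131, 2232, 1982 and 1655 CPM in WT livers on WD and at 762, 1177, 884, 1260 and 1120 CPM in WT livers on CDA-HFD, a log2 difference of -0.95 (SE 0.16, edgeR adjusted p = 4.79e-04). *Fads1* stood at 941, 1020, 988, 989 and 699 CPM and at 367, 534, 440, 562 and 546 CPM in the same groups, a log2 difference of -0.93 (SE 0.15, edgeR adjusted p = 3.72e-04). Neither gene had an overlap between the diets in WT livers, although WT liver 5 on WD was well below its group for *Fads1*. In KO livers *Fads2* was at 1761, 1278, 1787, 930 and 1596 CPM on WD and at 998, 1075, 1334, 813 and 557 CPM on CDA-HFD. *Fads1* was there at 829, 609, 691, 509 and 723 CPM and at 536, 527, 703, 445 and 348 CPM. The diets overlapped for both genes in KO livers, and neither difference passed (-0.63, SE 0.24, edgeR adjusted p = 0.0928 for *Fads2*, and -0.40, SE 0.19, edgeR adjusted p = 0.157 for *Fads1*).

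The ratio of *Fads2* to *Fads1* reads stayed within a narrow range in the 20 livers, with the lowest mean in KO livers on CDA-HFD. Its mean was 2.17 ± 0.14 (SD, n = 5) in WT livers and 2.17 ± 0.27 in KO livers on WD, and 2.12 ± 0.10 in WT livers and 1.85 ± 0.16 in KO livers on CDA-HFD. The lowest ratio, 1.60, was in KO liver 5 on CDA-HFD, and the highest, 2.59, in KO liver 3 on WD. The range in KO livers on CDA-HFD, 1.60 to 2.04, overlapped that of each other group. Among 9410 genes searched, each of the pair was the gene whose pattern was most like that of the other. The root mean square (RMS) difference of their standardized log2 CPM was 0.240 over 20 livers and 0.326 after the mean of each group was removed.

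**Figure D3:**
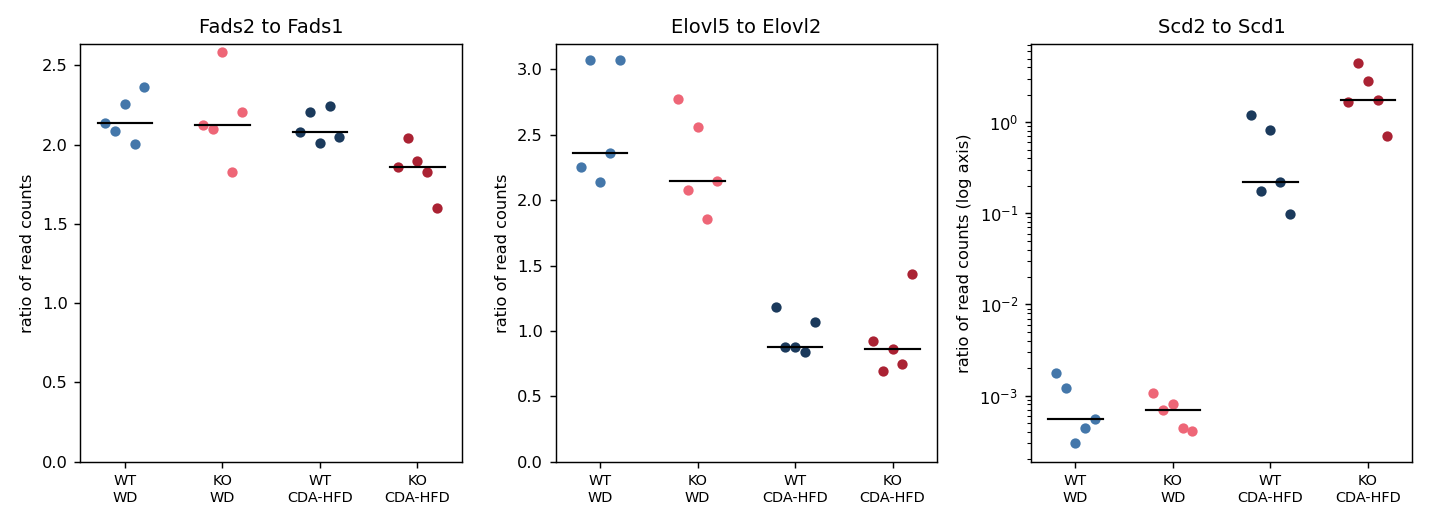
Ratio of the read counts of 2 genes within each liver for livers 1 to 5 of each group, with the median as a bar. The *Fads2* to *Fads1* ratio stayed between 1.60 and 2.59, the *Elovl5* to *Elovl2* ratio was below 1.5 in all livers on CDA-HFD and above 1.5 in all on WD, and the *Scd2* to *Scd1* ratio (log axis) was below 0.002 on WD and above 0.09 on CDA-HFD.

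*Fads6*, whose enzyme activity is less well described than that of its relatives, was at 208, 194, 211, 220 and 190 CPM in WT livers on WD and at 125, 166, 133, 186 and 139 CPM in WT livers on CDA-HFD. The groups did not overlap, but the nearest livers were at 190 and 186 CPM. The log2 difference was -0.46 (SE 0.11, edgeR adjusted p = 0.00572), and with library size as the only scaling it was -0.04 (adjusted p = 0.668). In KO livers it was -0.01 (SE 0.14, edgeR adjusted p = 0.962), and the levels were 198, 218, 257, 248 and 201 CPM on WD against 239, 259, 245, 223 and 151 CPM on CDA-HFD.

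*Elovl3*, an elongase of saturated and monounsaturated chains that is known in mice for its daily rhythm and its higher level in males, showed the widest range of the 7 genes. It stood at 26.6, 42.2, 81.1, 60.8 and 46.6 CPM in WT livers on WD and at 2.48, 3.60, 3.81, 4.23 and 3.14 CPM in WT livers on CDA-HFD, where 39 to 69 reads were counted per liver. The log2 difference was -3.90 (SE 0.28, edgeR adjusted p = 4.98e-06), to 0.0668 of the WD level. In KO livers it was at 30.9, 71.3, 30.4, 34.9 and 130 CPM on WD and at 16.2, 13.9, 23.4, 8.67 and 10.5 CPM on CDA-HFD. Those groups did not overlap either, and the difference was -2.04 (SE 0.43, edgeR adjusted p = 0.0109).

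*Scd2*, the delta-9 desaturase that predominates in brain and in the young rather than in adult liver, did not pass in either vector group. It varied widely within WT livers on WD, at 72.2, 62.7, 18.4, 29.3 and 30.8 CPM, and was at 64.9, 42.0, 58.2, 32.8 and 51.9 CPM in WT livers on CDA-HFD. The log2 difference was 0.22 (SE 0.33, edgeR adjusted p = 0.608). In KO livers it was at 63.7, 25.4, 40.2, 16.9 and 22.4 CPM on WD and at 25.7, 30.3, 21.1, 24.3 and 49.3 CPM on CDA-HFD, a difference of -0.15 (SE 0.35, edgeR adjusted p = 0.796). Its hepatic relative *Scd1* was at 41025 to 66349 CPM in WT livers on WD and at 54.5 to 534 CPM in WT livers on CDA-HFD, a log2 difference of -8.05 (SE 0.73, edgeR adjusted p = 1.54e-05). *Scd2* reads per *Scd1* read thus went from 0.000303 to 0.00176 on WD to 0.0971 to 1.19 on CDA-HFD. Whether reads of *Scd1* entered the *Scd2* count on WD was not tested.

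On WD, loss of *Cideb* in hepatocytes gave no call among the 7 genes. In that comparison 0.0126% of 15848 genes were called higher and 0.0631% lower (12 genes in all, with 1702 at an unadjusted p under 0.05), DESeq2 called none of the 7 genes either, and in 2.22% of all genes the groups did not overlap. The 4 genes of the polyunsaturated pathway proper all had negative differences with an unadjusted p under 0.05: *Elovl5* at -0.53 (SE 0.16, edgeR adjusted p = 0.279), *Fads1* at -0.46 (SE 0.14, adjusted p = 0.292), *Fads2* at -0.45 (SE 0.17, adjusted p = 0.388) and *Elovl2* at -0.39 (SE 0.17, adjusted p = 0.435). WT and KO livers overlapped for each of the 4, as the values by liver given above show. *Fads6* was at 0.13 (SE 0.09), *Elovl3* at 0.21 (SE 0.42) and *Scd2* at -0.35 (SE 0.41). The highest *Elovl3* level of all 20 livers was in KO liver 5 on WD, and without that liver its difference was -0.30. The median difference of the 7 genes was -0.39, against 0.01 for all genes tested.

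On CDA-HFD, *Elovl3* and *Fads6* were higher in KO than in WT livers and none of the 7 genes was called lower. Of 17204 genes, 8.19% were called higher, 7.29% lower, and in 9.57% the groups did not overlap. *Elovl3* was 4.20-fold higher (log2 difference 2.07, SE 0.27, edgeR adjusted p = 0.00461), with a mean of 14.5 ± 5.76 CPM (SD, n = 5) in KO livers against 3.45 ± 0.67 CPM in WT livers. Each KO liver lay above each WT liver, and KO liver 5 was among the others. The *Elovl3* call held with each liver left out in turn, with log2 differences between 1.83 and 2.21. The KO livers on CDA-HFD remained below all livers on WD. The KO and diet comparisons share the WT livers on CDA-HFD, and so are not independent.

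*Fads6* was 1.49-fold higher in KO livers (log2 difference 0.57, SE 0.16, edgeR adjusted p = 0.0405), at 223 ± 42.6 CPM against 150 ± 25.7 CPM. KO livers 1 to 4 lay above all WT livers and KO liver 5 at 151 CPM lay within them. Without KO liver 5 the difference was 0.69 (edgeR adjusted p = 0.00182). Of the 10 fits that left out 1 liver, 2 kept the call (without KO liver 5, and without WT liver 4 at an adjusted p of 0.0311), and it was lost without each of the other 8 livers (adjusted p up to 0.0996). It was also lost with library size as the only scaling (0.37, adjusted p = 0.0591), where the median of all genes shifted by -0.19 and 30.3% of calls were higher, against 52.9% with TMM. *Scd2* missed the threshold at -0.73 (SE 0.24, edgeR adjusted p = 0.0600), and DESeq2 called it (adjusted p = 0.0270). Its highest KO level, 49.3 CPM, was again that of KO liver 5, and without this liver the difference was -0.98 (adjusted p = 0.00196), so that 3 of the 7 genes were then called, where 19.6% of all genes were called higher and 21.8% lower.

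None of the 4 genes of the polyunsaturated pathway was called between KO and WT livers on CDA-HFD. *Fads1* differed by 0.06 (SE 0.19, edgeR adjusted p = 0.848), *Fads2* by -0.13 (SE 0.23, adjusted p = 0.720), *Elovl2* by 0.07 (SE 0.31, adjusted p = 0.883) and *Elovl5* by -0.06 (SE 0.18, adjusted p = 0.822). The median of the 7 genes was 0.06, against 0.00 for all genes tested. Each of the 4 differences was smaller than its SE.

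**Figure D4:**
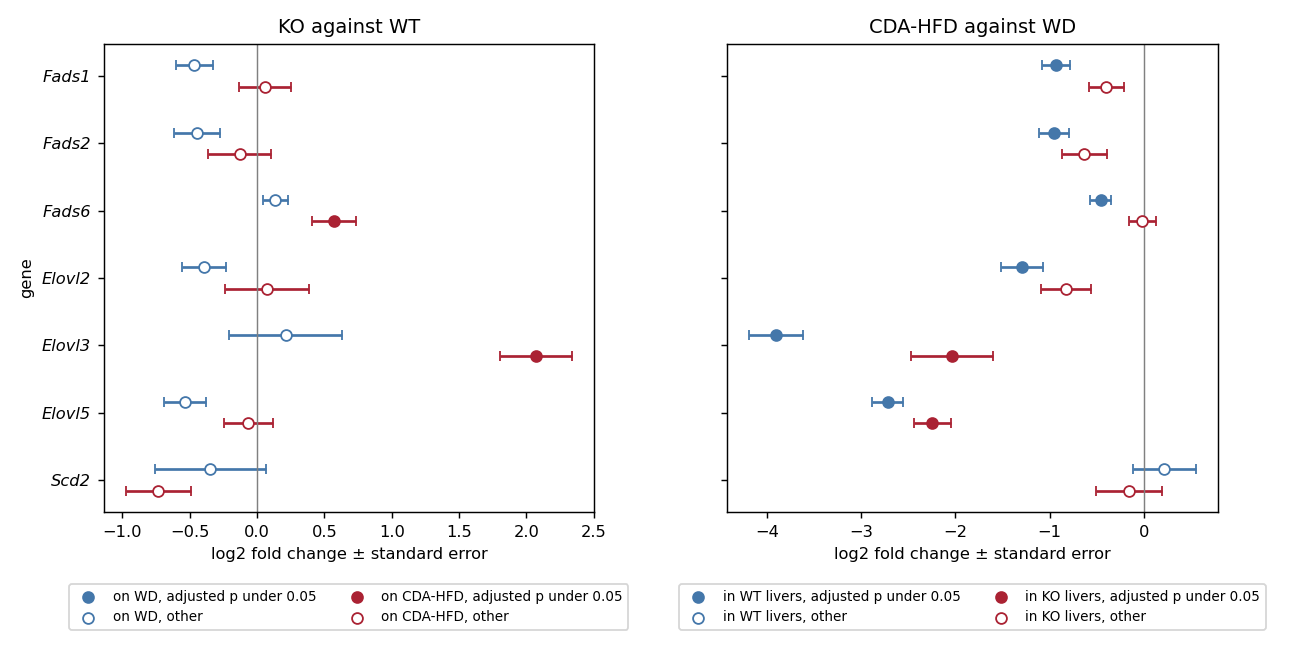
Log2 fold change of the 7 genes with its standard error (bars), KO against WT on each diet on the left and CDA-HFD against WD for each vector on the right. Filled points have an edgeR adjusted p under 0.05: *Elovl3* and *Fads6* in KO livers on CDA-HFD, 6 genes for diet in WT livers, and *Elovl3* and *Elovl5* for diet in KO livers.

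Whether the KO effect differed between the diets was tested as an interaction on all 20 livers. None of the 7 genes passed, where 0.331% of 17804 genes were called with a positive and 0.225% with a negative interaction. An unadjusted p under 0.05 was found for 3 of the 7 genes and for 2736 of the 17804. *Elovl3* had the largest term at 1.86 (SE 0.55, unadjusted p = 0.00299, edgeR adjusted p = 0.124), and DESeq2 called it (adjusted p = 0.0296). *Fads1* at 0.53 (SE 0.25, adjusted p = 0.310), *Elovl5* at 0.48 (SE 0.25, adjusted p = 0.371), *Elovl2* at 0.47 (SE 0.37, adjusted p = 0.561), *Fads6* at 0.44 (SE 0.19, adjusted p = 0.268) and *Fads2* at 0.32 (SE 0.30, adjusted p = 0.633) had positive terms as well, and *Scd2* was at -0.38 (SE 0.52, adjusted p = 0.755). Without KO liver 5 on CDA-HFD, *Elovl3* (1.96, edgeR adjusted p = 0.0316) and *Fads6* (0.56, adjusted p = 0.0258) were called. In that fit 6.17% of 17995 genes were called with a positive and 5.71% with a negative interaction. Without KO liver 5 on WD, *Elovl3* was called at 2.36 (edgeR adjusted p = 0.0251). The lower diet differences of *Fads1*, *Fads2* and *Elovl2* in KO than in WT livers are thus not shown to differ by vector.

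The rest of the pathway was followed in lists. Beside their counts stand the shares over all genes given above, 25.9% higher and 25.2% lower for diet in WT livers, 9.19% and 7.85% for diet in KO livers, and 8.19% and 7.29% for KO on CDA-HFD, or 19.6% and 21.8% for the latter without KO liver 5. Desaturases draw electrons from NADH through cytochrome b5, and 4 of 7 electron donor genes were lower on CDA-HFD in WT livers: *Cyb5r3* (-1.23), *Por* (-1.09), *Cyb5b* (-1.08) and *Cyb5a* (-0.60), while *Cyb5r1* (0.90) was higher. In KO livers *Cyb5r3* (-0.95) was lower and *Cyb5r1* (0.52) higher on CDA-HFD. Without KO liver 5 the latter call was lost (0.45, edgeR adjusted p = 0.0623) and *Cyb5b* was called lower (-0.39, adjusted p = 0.0158). On CDA-HFD *Por* (0.89), which also feeds cytochromes P450, was higher and *Cyb5r1* (-0.52) lower in KO than in WT livers. Leaving out KO liver 5, 3 donors were higher and 1 lower. The list had medians of -0.60, -0.37 and 0.39 in these 3 comparisons, and the medians of the lists that follow are given in the same order.

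Of 14 other elongases, desaturases and elongation cycle genes tested, 6 were lower and 5 higher on CDA-HFD in WT livers. *Scd1* (-8.05), *Scd3* (-5.77) and *Elovl6* (-2.59), which serve the synthesis of saturated and monounsaturated fatty acids, fell most, followed by the elongation cycle genes *Hsd17b12* (-1.12), *Hacd1* (-0.82) and *Tecr* (-0.80). Those higher were *Degs2* (1.73), *Elovl7* (1.53), *Hacd4* (1.32), *Elovl1* (0.30) and *Degs1* (0.25). The fall of *Scd3* was at the floor, from 15 to 27 reads per WT liver on WD to 0 to 1 on CDA-HFD. *Scd3* shares 75-base windows with *Scd1*, and whether reads of *Scd1* entered its count on WD was not tested. In KO livers 4 were lower (*Scd1*, *Scd3*, *Elovl6* and *Hsd17b12*) and 1 higher (*Degs2*). Between KO and WT livers on CDA-HFD, 3 of 13 were lower and 0 higher: *Scd1* (-3.21), *Hacd4* (-1.19) and *Fads3* (-0.82). With KO liver 5 left out, 2 of the 13 were higher and 5 lower. Medians were -0.22, -0.19 and -0.05.

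Of the 10 genes of peroxisomal shortening, the last step to DHA, 9 were lower on CDA-HFD in WT livers and 0 higher, among them *Acaa1b* (-2.46) and *Ehhadh* (-1.73), and *Abcd2* was at 0.34 without a call. In KO livers 8 were lower, led by *Acaa1b* (-2.29) and *Ehhadh* (-1.60). In KO against WT livers on CDA-HFD 5 of 10 were higher and 0 lower, among them *Acot8* (0.74), *Hsd17b4* (0.70) and *Acaa1a* (0.61). The count was 9 of 10 without KO liver 5. Medians of the list were -1.31, -0.81 and 0.60, each against a median of all genes within 0.01 of 0.

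Auxiliary enzymes move or reduce double bonds during the oxidation of unsaturated chains. Their list also held *Pecr*, which encodes a peroxisomal trans-2-enoyl-CoA reductase of chain elongation and is not such an enzyme. All 6 genes tested were lower on CDA-HFD in WT livers, from *Eci1* (-1.35) and *Pecr* (-1.15) to *Eci2* (-0.74), and 5 were lower in KO livers. On CDA-HFD 3 of 6 were higher in KO livers, *Pecr* (0.88), *Eci1* (0.68) and *Decr1* (0.56), and all 6 without KO liver 5. The medians of this list, *Pecr* included, were -1.04, -0.59 and 0.58.

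Acyl-CoA synthetases and acyltransferases, which activate fatty acids and place them in phospholipids, were mixed. In WT livers 8 of 16 were lower on CDA-HFD. Among them were *Acsl1* (-1.79), *Agpat2* (-1.71), *Acsl5* (-1.58) and *Lpcat3* (-1.14), which puts arachidonic acid into phosphatidylcholine. Another 6 were higher, led by *Mboat1* (2.49) and *Mboat2* (1.99). Both rested on few reads, 2 to 6 for *Mboat1* and 5 to 12 for *Mboat2* per WT liver on WD. In KO livers 5 of 15 were lower and 2 higher. In KO against WT livers on CDA-HFD *Acsl1* (1.39) and *Agpat3* (0.49) were higher and *Agpat5* (-0.41) lower, while *Lpcat3* was at 0.10 (SE 0.18). In the absence of KO liver 5, 5 of the 16 were higher and 7 lower. The medians of these genes were -0.05, -0.10 and -0.34.

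Of 12 transcription factors and sterol sensors that act on these genes, 10 were lower and 1 higher on CDA-HFD in WT livers. *Srebf1*, whose product activates lipogenic and desaturase genes, was lower by 2.38 (SE 0.16, edgeR adjusted p = 3.27e-06), *Insig2* was at -1.85, *Mlxipl*, which encodes the carbohydrate-sensing factor ChREBP, at -1.67 and *Ppara* at -1.48, whereas *Srebf2*, the regulator of cholesterol synthesis, was higher (0.68). In KO livers 4 were lower (*Srebf1*, *Insig2*, *Mlxipl* and *Ppara*) and *Srebf2* (0.88) higher. On CDA-HFD *Mlxipl* (1.07) and *Hnf4a* (0.84) were higher in KO livers and 0 were lower, and *Srebf1* was at 0.19 (SE 0.29). Of the 12, 7 were higher without KO liver 5. For this list the medians were -0.63, -0.14 and 0.42.

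A further list held genes for the release, oxygenation or later conversion of arachidonic acid, the product of *Fads1*. It included epoxide hydrolases (*Ephx1* and *Ephx2*) and an accessory protein (*Alox5ap*). On CDA-HFD in WT livers 3 of 11 were higher and 3 lower, close to the shares over all genes. The rises were those of *Alox5ap* (2.34), *Pla2g4a* (1.28) and *Alox15* (1.24), of which the first is a gene of leukocytes, and the falls those of *Ephx2* (-1.50), *Pla2g6* (-1.43) and *Ephx1* (-0.77). In KO livers 2 of 11 were higher and 3 lower. In KO livers on CDA-HFD *Ephx2* (0.75), *Pla2g6* (0.55) and *Ephx1* (0.53) were higher and *Alox5ap* (-1.62) and *Pla2g4a* lower than in WT livers. Once KO liver 5 was left out, 4 of 12 were higher and 2 lower. The genes of this list had medians of 0.01, -0.04 and -0.08.

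**Figure D5:**
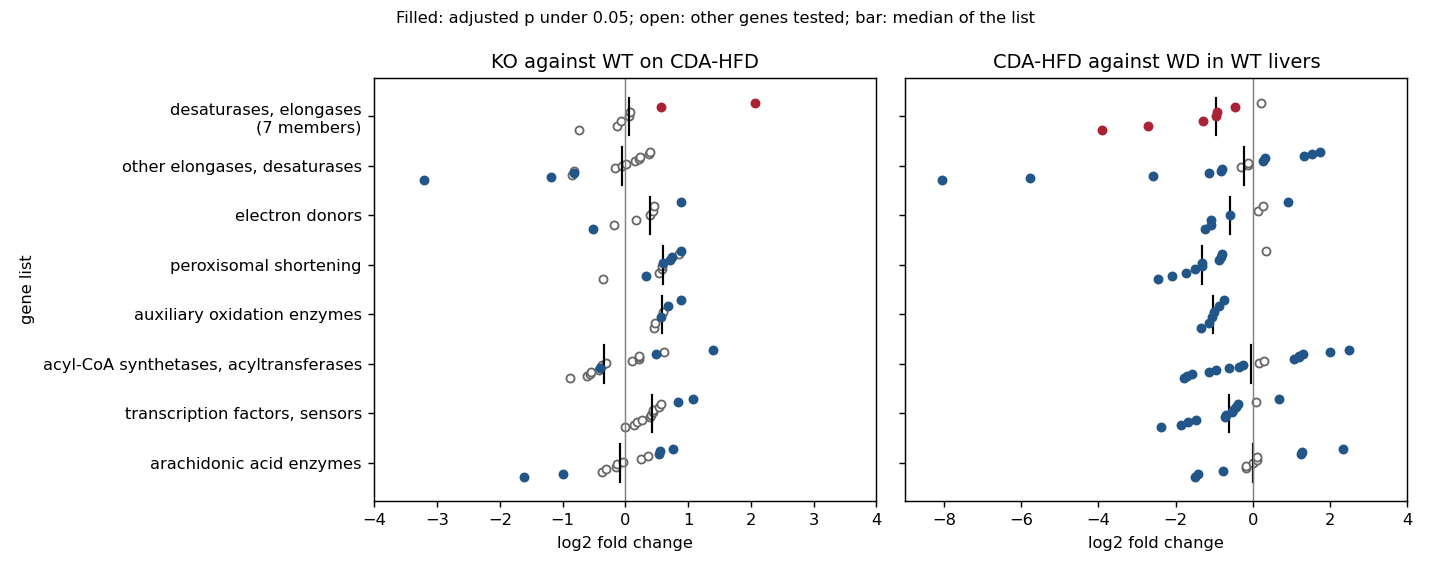
Log2 fold change of every tested gene of the 7 genes and of 7 pathway lists, KO against WT on CDA-HFD on the left and CDA-HFD against WD in WT livers on the right, with filled points for an edgeR adjusted p under 0.05 and a bar at the list median. The peroxisomal and auxiliary oxidation lists lay mostly below 0 for diet and above 0 for KO, while 4 of the 7 desaturase and elongase genes lay near 0 for KO.

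*Elovl3* is known to follow the clock and the sex of the animal in mouse liver, and both were followed beside it. Reads of the Y-linked gene *Ddx3y* numbered at least 775 in each liver, and reads of *Xist* at most 29. Each of the 20 libraries thus had the pattern of a male. Of 13 clock genes tested on CDA-HFD, *Cry1* (0.90) and *Cry2* (0.63) were higher in KO livers and 0 were lower. Of all genes, 8.19% were called higher and 7.29% lower in that comparison. Of the clock genes, 5 were lower and 1 higher on CDA-HFD in WT livers, among them *Cry2* (-0.67), *Nr1d1* (-0.53) and *Dbp* (-0.41), and 3 of 12 were lower in KO livers, with *Nr1d1* (-1.12) leading. Of the sex-biased and sex chromosome genes, *Cyp2b9* (2.65), *Cyp4a12a* (1.77) and *Cyp4a12b* (1.11) were the 3 of 13 called higher with KO on CDA-HFD, where 0 were called lower, 5 of 12 were lower on CDA-HFD in WT livers, and 2 of 13 in KO livers. When KO liver 5 was left out, 5 clock genes were higher and 1 lower, and 5 of 14 sex-biased genes higher. In that fit 19.6% of all genes were called higher and 21.8% lower. The medians were -0.38, -0.25 and 0.30 for the clock and -0.21, -0.21 and 0.34 for the sex-biased list. The latter mixes male-biased, female-biased and sex chromosome genes, so its counts and medians give no direction towards either sex. The part of the clock and of sex-biased expression in the *Elovl3* difference was not tested.

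For diet in KO livers, leaving out KO liver 5 changed the counts higher and lower to 0 and 2 for electron donors, 1 and 5 for other elongases and desaturases, 0 and 7 for peroxisomal shortening, 1 and 4 for acyltransferases, 2 and 2 for arachidonic acid enzymes and 2 and 3 for clock genes. They stayed at 0 and 5 for auxiliary enzymes, 1 and 4 for transcription factors and 0 and 2 for the sex-biased list, with 9.03% of all genes called higher and 8.37% lower.

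On WD, edgeR called 0 of the 98 genes of these 9 lists between KO and WT livers (23 had an unadjusted p under 0.05), and DESeq2 called *Abcd3*, *Acsl1*, *Alox5ap*, *Cyp4a12a* and *Ehhadh*. For the interaction edgeR called 0 of 104 (26 had an unadjusted p under 0.05, beside 2736 of all 17804 genes), and DESeq2 called 2, among them *Pla2g6*. Without KO liver 5 on CDA-HFD the interaction was positive and called for 6 of 12 transcription factors and sensors and for 4 of 10 peroxisomal genes, where 6.17% of all genes were called with a positive term.

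Levels of cell type markers also moved in these comparisons. In bulk RNA, fewer cells of a type and less RNA per cell cannot be told apart. The summed level of 10 hepatocyte markers was 42547 to 89708 CPM in WT livers on CDA-HFD, 90290 to 132667 CPM in KO livers 1 to 4 and 47314 CPM in KO liver 5, against 80920 to 130178 CPM in WT livers on WD. Of these markers 6 were lower on CDA-HFD in WT livers, and 1 was higher in KO livers on CDA-HFD. The 12 stellate cell and fibroblast markers summed to 2600 to 4389 CPM in WT livers on CDA-HFD, with 11 of them higher than on WD, to 1428 to 1635 CPM in KO livers 1 to 4, and to 4604 CPM in KO liver 5. The 12 macrophage markers summed to 1804 to 3728 CPM in WT livers, 643 to 856 CPM in KO livers 1 to 4 and 2112 CPM in KO liver 5, with 5 called lower and 0 higher in KO livers on CDA-HFD, and 6 higher and 2 lower on CDA-HFD than on WD in WT livers. The 6 neutrophil markers tested were all called lower in KO livers on CDA-HFD. The 8 cholangiocyte markers summed to 385 to 820 CPM in WT livers, 86.1 to 193 CPM in KO livers 1 to 4 and 677 CPM in KO liver 5, and all 8 were higher on CDA-HFD than on WD in WT livers. Of 8 endothelial markers 6 were lower, and of 7 lymphocyte markers 4 higher, on CDA-HFD in WT livers. With all livers, the KO comparison on CDA-HFD called 2 of 12 stellate markers lower and none of the 8 cholangiocyte, 8 endothelial or 8 lymphocyte markers. Without KO liver 5 it called 5 of 10 hepatocyte and 6 of 8 endothelial markers higher, 10 of 12 stellate, 7 of 8 cholangiocyte, 1 of 8 lymphocyte and 6 of 6 neutrophil markers lower, and 7 of 12 macrophage markers lower and 2 higher (*Clec4f* at 0.59 and *Marco* at 1.51). On WD edgeR called 0 of the 54 markers tested (5 had an unadjusted p under 0.05), and DESeq2 called *Clec4g*. The shares over all genes given for the pathway lists stand beside these counts too. No marker of any list was at 0 in every liver of a group. The part of cell content in the differences of the 7 genes was not tested.

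The genes whose pattern over the 20 livers was most like that of each gene were then listed, among the same 9410 genes, as a description. After one another, *Fads1* and *Fads2* were both nearest to *Tm7sf3* and to *Acly*, which makes the acetyl-CoA for fatty acid synthesis (RMS difference 0.430 for *Fads1* and 0.448 for *Fads2*). *Elovl5* was nearest to *Tmem135* (0.153), *Prxl2a* (0.178) and *Pgrmc2* (0.192). *Elovl2* was nearest to *Lactb2* (0.335), *Psmd12* (0.336) and *Impg2* (0.340), and *Elovl3* to *Hsd17b10* (0.248), *Zfp445* (0.254) and *Gpat4* (0.280). *Fads6* was nearest to *Nags* (0.327) and *Dcaf11* (0.331), and *Scd2* to *Hk2* (0.389), *Arhgap27* (0.434) and *Synj2* (0.441). *Scd2* was farther from each of the other 6 genes (1.43 to 1.80) than any 2 of these were from each other (0.240 to 1.10).

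With the mean of each group removed, so that the liver-to-liver spread within groups was left, the nearest genes were others for most of the 7. *Fads1* was then followed by *Acsl5* (0.458) and *Elovl6* (0.493) after *Fads2*, and *Fads2* by *LOC118568359* (0.371) and *Acsl5* (0.410) after *Fads1*. *Elovl5* was nearest to *Acnat2* (0.489), *Agpat2* (0.498) and *Gpam* (0.506). *Elovl2* was nearest to *Rtp3* (0.348), *Pcbd1* (0.381) and *Sdr9c7* (0.384), *Fads6* to *Mst1* (0.402) and *Tepsin* (0.411), and *Scd2* to *Arhgap27* (0.356), *Ubd* (0.357) and *Cln6* (0.361). *Elovl3* had no near gene, at 0.647 to *Paqr3*, 0.655 to *Rhobtb1* and 0.656 to *Tango2*. KO liver 5 on CDA-HFD was the lowest of its group for *Fads1*, *Fads2*, *Fads6*, *Elovl2* and *Elovl5* and the highest for *Scd2*. How far these nearest genes rest on that liver was not tested.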

How the data were processed

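Total RNA of 20 livers was sequenced, and the authors deposited raw read counts per gene without normalization. The labels name the build mm10, and the aligner and counter are not given in the sources used here. The paper describes single-end 75-base reads from a Nugen library, and the labels a directional NEBNext kit. Rows of the table that name no gene (5) were dropped, and groups came from the labels. A test of copied libraries found none, the chi-square per degree of freedom being 6.95 to 124 over 40 pairs.

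R 4.3.3 and edgeR 4.0.16 were used (filterByExpr, TMM, quasi-likelihood F test, Benjamini-Hochberg adjustment, threshold 0.05). KO was compared with WT within each diet and the diets within each vector on 10 livers, and the interaction on all 20. The SE was derived from the F statistic. RPKM used the exon length in GENCODE for GRCm38. Log2 CPM for likeness and principal components had a prior count of 2, and likeness was searched among genes with a mean of at least 3, without predicted (Gm) and Rik genes. Promoter windows came from RefSeq (GRCm38.p6), which matched 4 of the 7 genes.

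The 7 genes and the 9 pathway and 7 cell type lists were chosen with earlier results of these data known, so lists are described by counts and medians. The rule named the 7 genes, *Cideb*, list genes past the threshold and the 3 genes most like each of the 7, and leading genes stand for the longer lists. Some genes that the rule names are not reported here. Genes called only by DESeq2 or only without KO liver 5 were named after their values were seen. Other settings tried were RLE factors, library size alone, DESeq2 1.42.0, no filter or at least 10 counts in every liver, all 20 livers in one fit, a replicate block, other gene lengths and leaving out each liver. The list counts without KO liver 5 on CDA-HFD were added after seeing the data. Tested on simulated counts of KO against WT on CDA-HFD over 16946 genes, edgeR recovered 72.0% of 50 genes changed by 1 on the log2 scale, with 3.70% of calls false, and DESeq2 recovered 74.0%, with 21.8% false. Of 50 genes changed by 0.5, edgeR recovered 8% and DESeq2 24%. A missing call for a difference of that size thus does not show that the gene was unchanged. In simulated counts of CDA-HFD against WD in WT livers, 6.04% of edgeR calls and 20.7% of DESeq2 calls were false. Each simulation changed 50 genes at each log2 size of 0.5, 1, 2 and 3, far fewer than were called in the data. The false shares need therefore not hold for the data.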

Additional observations from a re-analysis of the deposited data

Results flagged for a closer look

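In 2 of 28 gene and group combinations examined, 1 liver stood apart from the other 4 of its group by more than Dixon's limit, where chance gives about 5% of groups. *Fads1* was at 699 CPM in WT liver 5 on WD, against 941 to 1020 CPM in the other 4 livers, a gap of 0.754 of the whole range. *Elovl2* was at 114 CPM in KO liver 5 on CDA-HFD, against 297 to 367 CPM in the other 4, a gap of 0.720 of the range. That liver, which held 1 read of *Cideb*, is the KO library that fell within the WT range of the first principal component.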

How the results depend on the processing

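The diet calls in WT livers held under every alternative for *Elovl5*, *Elovl3*, *Elovl2*, *Fads2* and *Fads1*, as did the KO call of *Elovl3* on CDA-HFD, and *Fads6* lost its calls with library size only. Among the 7 genes, calls for KO on CDA-HFD went from 2 to 1 with library size only and to 3 with DESeq2, which added *Scd2* (1 to 3 with each liver left out), calls for diet in KO livers from 2 to 4 with DESeq2 and with all 20 livers in one fit, and interaction calls from 0 to 1 with DESeq2 (0 to 2 with each liver left out, where the 2 were without KO liver 5 on CDA-HFD). Of the 28 positions of gene and group by mean level per length, 26 kept their rank with the longest transcript and 16 with the coding sequence.

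Among all genes, the 12 calls for KO on WD became 164 with DESeq2 (39.0% of them higher, against 16.7%), 38 with no filter, 26 with all 20 livers and 2 with a replicate block, and 1 to 33 with each liver left out. The 2664 calls on CDA-HFD became 1709 with library size only, 4146 with DESeq2 and 4170 with all 20 livers, and 709 (without KO liver 1) to 7201 (without KO liver 5) with each liver left out. The 2792 diet calls in KO livers became 4476 with all 20 livers and 1568 to 2881 with each liver left out. The 99 interaction calls became 44 with library size only, 434 with DESeq2, 52 with no filter and 8 with a replicate block, and 35 to 2138 with each liver left out. The cause of these changes was not tested.

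Signs turned only where the difference was small and not called. With library size only these were KO on CDA-HFD for *Fads1* (-0.15) and *Elovl2* (-0.14) and diet in KO livers for *Fads6* (0.22) and *Scd2* (0.12), and with at least 10 counts in every liver *Fads6* in the latter (0.0035). With each liver left out, KO on WD ranged from -0.30 to 0.43 for *Elovl3*. KO on CDA-HFD ranged from -0.080 to 0.17 for *Fads1*, -0.28 to 0.017 for *Fads2*, -0.067 to 0.28 for *Elovl2* and -0.15 to 0.059 for *Elovl5*. Diet in KO livers ranged from -0.071 to 0.097 for *Fads6* and -0.41 to 0.20 for *Scd2*.

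Residuals of livers with the same replicate number correlated with either sign. The correlations lay between -0.383 and 0.417 on WD, -0.525 and 0.424 on CDA-HFD, -0.239 and 0.459 in WT and -0.152 and 0.470 in KO livers. Livers with different numbers were not compared, so these values cannot tell whether the numbers pair the livers. With the replicate block the counts of calls among the 7 genes were 0 and 2 for KO on WD and CDA-HFD, 6 and 2 for diet in WT and KO livers, and 0 for the interaction, the same as without it. *Elovl3* in WT livers on CDA-HFD rests on 39 to 69 reads per liver, and the other 6 genes on at least 222.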
